A study of Mus musculus with 26 samples.

Results

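The common gamma chain cytokine receptors were followed as 8 genes, taken by symbol from the count and FPKM tables and found in both sets among 21761 genes. They were Il2ra (Entrez 16184), Il2rb (16185), Il2rg (16186), Il7r (16197), Il4ra (16190), Il15ra (16169), Il21r (60504) and Il9r (16199). Their mouse chromosomes are 2, 15, X, 15, 7, 2, 7 and 11, in that order. The 26 mRNA libraries came from CD4+ T cells of spleen and lymph nodes, all of the C57BL/6 strain. A first table held Treg cells sorted ex vivo as CD4+eGFP+ at 3 weeks of age, from Tet2fl/fl Tet3fl/fl Foxp3-eGFP mice with CD4-Cre (Tet2/3-deficient, n = 4) and from mice with the same floxed alleles and reporter without Cre (control, n = 4). The same table held 12 libraries, n = 2 a group, made at 5 to 6 weeks of age from mice with the Foxp3-eGFP reporter alone. These were induced Treg (iTreg) cultures with TGFb, retinoic acid and vitamin C, with TGFb and retinoic acid, with TGFb and vitamin C, or with TGFb alone, Th0 cells activated through CD3 and CD28, and naive cells. The naive cells were sorted as CD4+eGFP-CD25-CD62LhiCD44lo. A restimulation table, from reporter mice of 12 to 14 weeks, held cells sorted as Foxp3- on day 6 after TGFb iTreg cells were restimulated through CD3 and CD28 (n = 3), and TGFb iTreg cells sorted as Foxp3+ on day 6 (n = 3). The eGFP reporter marks cells that express Foxp3, the transcription factor that defines Treg cells. Cre driven by Cd4 regulatory sequences acts in developing thymocytes, so conventional and CD8 T cells of those mice carry the deletion as well as Treg cells.

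Receptors of this family share the chain encoded by Il2rg, which pairs with a private chain for each ligand and signals through the kinases JAK1 and JAK3 to STAT transcription factors. Il2ra (CD25) binds IL-2 and raises the affinity of the signalling pair Il2rb and Il2rg, Il2rb also serves IL-15, and Il15ra captures IL-15 and can present it to neighbouring cells. Il7r (CD127) carries survival signals in resting T cells and is known to be low on Treg cells, while Il2ra is high on them. Il4ra serves IL-4 and IL-13, Il21r serves IL-21, and Il9r serves IL-9.

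RefSeq promoter entries (build GRCm38.p6) were found for 7 of the 8 genes. Il2ra spanned the widest fold range of the chains counted in every group, with its low end in naive cells that were sorted without CD25, its product. Il21r was one of the chains that retinoic acid moved. Il7r was highest in naive cells, where Il2ra was lowest, and low in every cultured group. Shown are the 250 bases before the starts of Il2ra, Il7r and Il21r. Each is printed 5′ to 3′ on the gene's strand, with matches to the motifs searched in capitals. Il2ra and Il21r lie on the plus strand and Il7r on the minus strand.
Il2ra (chr2:11642542-11642791): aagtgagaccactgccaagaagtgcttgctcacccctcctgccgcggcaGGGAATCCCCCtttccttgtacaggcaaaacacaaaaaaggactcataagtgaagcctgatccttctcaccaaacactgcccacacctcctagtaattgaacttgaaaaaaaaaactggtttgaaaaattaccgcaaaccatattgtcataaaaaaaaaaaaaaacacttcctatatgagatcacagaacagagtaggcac
Il7r (chr15:9529877-9530126): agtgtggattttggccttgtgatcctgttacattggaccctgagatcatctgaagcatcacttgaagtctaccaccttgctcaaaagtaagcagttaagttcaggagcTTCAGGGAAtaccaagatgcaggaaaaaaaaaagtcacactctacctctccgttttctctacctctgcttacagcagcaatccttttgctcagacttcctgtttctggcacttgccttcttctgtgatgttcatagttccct
Il21r (chr7:125603179-125603428): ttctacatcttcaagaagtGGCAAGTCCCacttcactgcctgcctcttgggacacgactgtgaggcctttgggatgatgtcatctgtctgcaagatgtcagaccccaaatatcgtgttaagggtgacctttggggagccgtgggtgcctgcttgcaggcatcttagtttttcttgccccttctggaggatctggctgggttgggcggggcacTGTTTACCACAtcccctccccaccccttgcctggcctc
The motifs, searched on both strands, were GGG and CC with any 5 bases between them for NF-kB, TTCNNNGAA for STAT factors, GTAAACA for FOXO factors and TGTGGT for RUNX factors. In the Il2ra window the capitals hold 3 overlapping NF-kB matches, with first bases at -201 and -200 from the start. The same bases at -201 matched on both strands, so these are not 3 separate sites. The Il7r window holds 1 STAT match at -142, and the Il21r window an NF-kB match at -231 and overlapping FOXO and RUNX matches at -38 and -33. Over 32851 promoters of the same length, 45.8% held the NF-kB motif, 7.02% the STAT motif, 3.17% the FOXO motif and 14.0% the RUNX motif. Among the other members, 1 of the Il15ra windows held an NF-kB match, Il9r and Il2rg a RUNX match each, and Il4ra none of these letters. On the same assembly no annotated gene lies between Il4ra and Il21r, and 1 non-coding gene lies between Il2ra and Il15ra. Il2ra overlaps an annotated lncRNA and Il9r a pseudogene, and how reads were shared between them is not given in the sources used here.

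Total counts were 13397602 to 17672302 per ex vivo Treg library, 9647669 to 11640223 per naive or cultured library and 11293704 to 17219805 per restimulation library. Nothing in the labels says that replicates came from separate animals or cultures, so each p-value measures only the spread between these samples. Of the deleted genes, Tet2 stood at 12.0 to 16.5 CPM (read counts scaled to the library total, with no division by length) in Tet2/3-deficient and 9.96 to 15.7 CPM in control libraries, and Tet3 at 96.3 to 114 CPM in Tet2/3-deficient and 126 to 172 CPM in control libraries. These sums cover all exons, and the floxed exons were not analysed here on their own. Foxp3 was at 302 to 973 CPM in the groups labelled Treg or iTreg and at 13.5 to 26.3 CPM in naive, Th0 and restimulated Foxp3- libraries, and Cd4 and Cd3e were above 326 CPM in all 26 libraries. Control library S1 stood apart from the other 3 control libraries in several members, and results that rest on it are given with and without it. In bulk RNA, fewer cells of a type and less RNA per cell cannot be told apart.

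Across the 8 groups of the first table the shared chain was nearly level and the private chains were not. Levels here are FPKM, which divide counts by library total and exon length and so can be compared between genes. Group means of Il2rg ran from 310.5 FPKM in Th0 cells to 372 FPKM in TGFb plus vitamin C cultures, a 1.20-fold span. In that order TGFb alone overlapped naive, retinoic acid overlapped retinoic acid plus vitamin C, and both ex vivo Treg groups overlapped each other and Th0. Il2ra spanned 1475-fold, with 778 FPKM under TGFb, retinoic acid and vitamin C at the top and 0.527 FPKM in naive cells at the bottom. The naive gate removed cells with CD25, the product of Il2ra, so that end of its range is set by the sort. Il2rb spanned 40.9-fold (570.0 FPKM in Tet2/3-deficient Treg, 13.9 FPKM in naive cells), Il7r 25.4-fold (131 FPKM in naive, 5.16 FPKM in Th0 cells), Il21r 2.68-fold, Il4ra 2.12-fold and Il15ra 1.61-fold. Il9r was highest in control Treg cells at 10.4 FPKM and had 0 counts in both naive libraries.

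**Figure D1:**
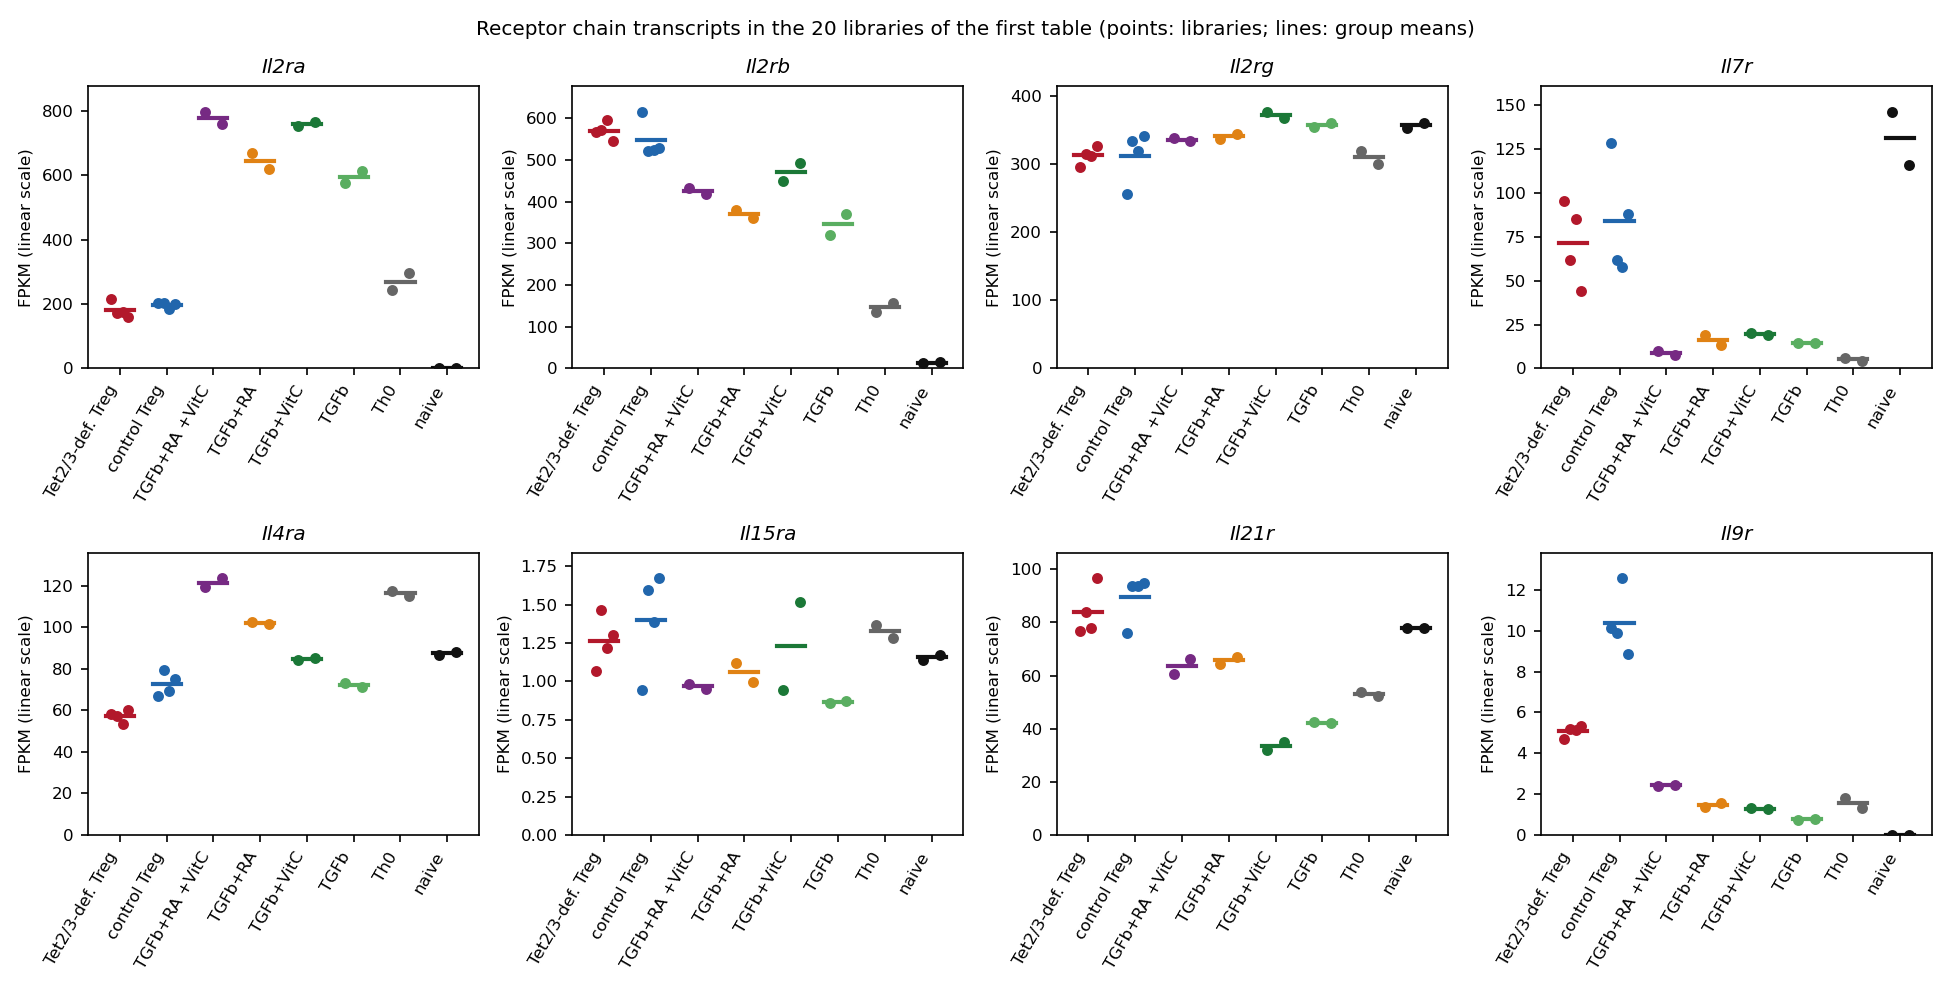
FPKM (linear scale from 0, a separate axis for each gene) of the 8 receptor genes in the 20 libraries of the first table, with points for libraries and lines for group means. Il2rg is near level across groups, Il2ra and Il2rb are lowest in naive cells, Il7r is high in naive and ex vivo Treg cells and low in every cultured group, and Il9r is highest in control Treg cells.

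The order of the groups differed between chains. Il2ra was highest in iTreg cultures, then in Th0 cells, then in ex vivo Treg cells, whereas Il2rb was highest in ex vivo Treg cells, then in iTreg cultures, then in Th0 cells. In both orders, Tet2/3-deficient and control Treg libraries overlapped. For Il2ra the cultures with retinoic acid plus vitamin C and with vitamin C alone overlapped as well, and for Il2rb those with retinoic acid and with TGFb alone. For Il7r the order was naive, control Treg, Tet2/3-deficient Treg, the iTreg cultures and Th0, with overlap between the first 3 groups and between the cultures with retinoic acid and with TGFb alone. Il21r had the same first 3 groups in another order, control Treg, Tet2/3-deficient Treg and naive, which overlapped. Il15ra never passed 1.67 FPKM in a library, and its first 4 groups each overlapped the next. Over the 8 group means on the log2(FPKM + 1) scale, Pearson's r was 0.90 between Il2ra and Il2rb and -0.70 between Il2ra and Il7r, a description of 8 points that share a naive group sorted against CD25.

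The members' summed FPKM had a different make-up in each kind of cell. Il2rb made up 44.4 ± 1.1% in Tet2/3-deficient and 41.6 ± 2.7% in control Treg cells (SD, n = 4 each). Il2ra made up 14.1 ± 1.5% in Tet2/3-deficient and 15.0 ± 0.39% in control Treg cells. In the iTreg cultures Il2ra was the largest share, from 41.6% with TGFb alone to 44.8% with TGFb, retinoic acid and vitamin C. In naive cells Il2rg (53.4 ± 1.9%) and Il7r (19.6 ± 2.8%) led (n = 2). The ratio of Il2ra to Il2rb FPKM was 0.318 ± 0.040 in Tet2/3-deficient Treg, 0.363 ± 0.027 in control Treg (n = 4 each), 1.61 to 1.83 in the means of the 4 iTreg groups and Th0, and 0.0383 in naive cells.

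**Figure D2:**
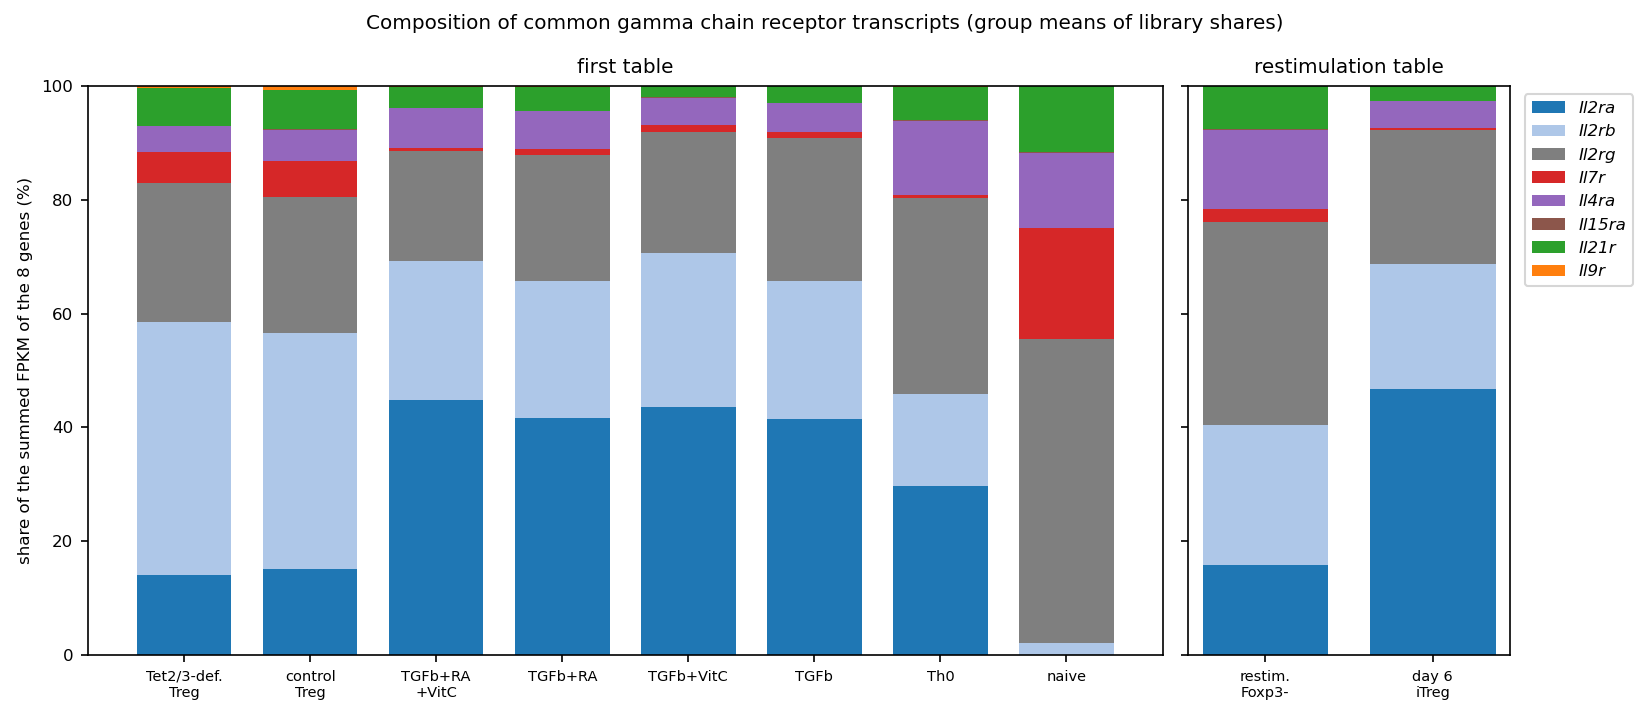
Share of each receptor gene (percent) in the summed FPKM of the 8 genes, as group means of library shares, for the groups of the first table (left) and of the restimulation table (right). Il2rb is the largest share in both ex vivo Treg groups, Il2ra in all iTreg groups, and Il2rg in Th0, naive and restimulated Foxp3- cells.

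Deletion of Tet2 and Tet3 went with lower Il9r and Il4ra in Treg cells, and no member rose. Il9r stood at 4.69, 5.17, 5.13 and 5.34 FPKM in Tet2/3-deficient and 10.1, 9.91, 12.6 and 8.87 FPKM in control libraries. Every Tet2/3-deficient library lay below every control library. The fall was 2.10-fold, a log2 fold change of -1.07 ± 0.12 (SE), by edgeR's quasi-likelihood test with Benjamini-Hochberg (BH) adjustment over all genes tested (adjusted p = 6.41e-05). Il4ra was at 58.2, 57.5, 53.3 and 60.3 FPKM in the Tet2/3-deficient and 66.9, 79.1, 69.4 and 75.0 FPKM in the control libraries. The groups again did not overlap, and Il4ra fell 1.30-fold (log2 -0.38 ± 0.07, edgeR, BH-adjusted p = 0.00145). So 2 of 8 members passed, both lower, where 32.5% of 11679 genes tested passed, 16.7% higher and 15.8% lower. The median log2 fold change was -0.18 over the members and 0.00 over all genes tested. Without control library S1 both calls held, with Il9r at -1.08 and Il4ra at -0.42 on the log2 scale.

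The IL-2 receptor chains of the same cells overlapped between genotypes. Il2ra was at 214, 174, 176 and 160.2 FPKM in Tet2/3-deficient and 203, 204, 186 and 200.3 FPKM in control libraries. In 1 Tet2/3-deficient library, S5, it was above every control library, and in the other 3 below them. The difference did not pass (log2 -0.17 ± 0.08, 95% interval -0.34 to 0.01, edgeR, BH-adjusted p = 0.129), and without S5 it did (log2 -0.26, adjusted p = 0.00890). Il2rb was at 568, 572, 595 and 545 FPKM in Tet2/3-deficient and 616, 522, 525 and 529 FPKM in control libraries (log2 0.02 ± 0.06, 95% interval -0.12 to 0.15). Il2rg was at 297, 316, 313 and 327 FPKM in Tet2/3-deficient and 256, 334, 319 and 342 FPKM in control libraries (log2 -0.04 ± 0.08, 95% interval -0.22 to 0.15). In control library S1 Il2rb was the highest and Il2rg the lowest of all 8 ex vivo libraries. Il15ra (log2 -0.19 ± 0.19) and Il21r (log2 -0.13 ± 0.09) did not pass either.

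Il7r varied most within the ex vivo groups. Its level was 95.6, 61.5, 85.2 and 44.3 FPKM in Tet2/3-deficient and 128, 62.0, 57.6 and 88.2 FPKM in control libraries, so each group held both high and low libraries. Its log2 fold change of -0.27 ± 0.33 had a 95% interval of -1.05 to 0.52 (edgeR, BH-adjusted p = 0.579). Without control library S1, the highest, the value was 0.01.

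Markers of other cells moved between these groups. The summed level of 5 NK and innate lymphoid markers was 33.6 to 48.1 CPM in Tet2/3-deficient and 7.67 to 9.90 CPM in control libraries. That of 7 myeloid and dendritic markers was 43.2 to 129 CPM in Tet2/3-deficient and 37.6 to 47.6 CPM in control libraries, and that of 2 CD8 T cell markers 3.37 to 5.30 CPM in Tet2/3-deficient and 24.8 to 28.5 CPM in control libraries. None of these markers was at 0 in either group. Eomes alone made up 24.7 to 35.7 CPM of the NK and innate lymphoid sum in Tet2/3-deficient and 3.52 to 5.34 CPM in control libraries. Mast cells are known to carry the IL-9 receptor. Of 4 mast cell markers, Mcpt4 and Ms4a2 were at 0 in all 8 libraries and the sum was 8.39 to 13.1 CPM in Tet2/3-deficient and 6.66 to 12.2 CPM in control libraries. The 6 Treg markers summed to 1725 to 1842 CPM in Tet2/3-deficient and 2160 to 2383 CPM in control libraries. Their part in the Il9r and Il4ra results was not tested.

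Genes around the receptors were read beside the 16.7% higher and 15.8% lower calls of all genes in the Tet2/3-deficient Treg cells. Among 17 kinases, STATs and adaptors 7 fell and 1 rose (median log2 -0.20). The kinase gene Jak1 was at 943 ± 32 CPM in Tet2/3-deficient and 1144 ± 47 CPM in control cells (log2 -0.32 ± 0.05; mean ± SD, n = 4 each, for levels). Pik3r1, a regulatory subunit of PI3 kinase (log2 -0.56 ± 0.09), and Stat3 (log2 -0.28 ± 0.06) fell too. The adaptor gene Gab2 rose (log2 1.84 ± 0.35) at low levels, 0.970 to 2.28 CPM in Tet2/3-deficient and 0.326 to 0.573 CPM in control libraries. Of 8 feedback genes 4 fell and none rose (median -0.27), among them Cish, a STAT5-induced inhibitor, at 108 ± 9 CPM in Tet2/3-deficient and 195 ± 16 CPM in control cells (log2 -0.89 ± 0.08), and Socs3 (log2 -0.76 ± 0.15). Cish was lower in each Tet2/3-deficient library than in every control library. Of 12 genes known to respond to STAT5 or STAT6, 3 rose and 3 fell, with the kinase genes Pim2 (log2 1.09 ± 0.08) and Pim1 (log2 -0.69 ± 0.06) on opposite sides (median -0.08). Among 16 transcription factors known to act on the receptor genes 11 fell and 2 rose (median -0.34), with Eomes, a T-box factor that is also in the NK list (log2 2.83 ± 0.17), and Runx3 (log2 0.86 ± 0.07) higher and Tbx21 (log2 -0.78 ± 0.27) lower. The Tbx21 libraries overlapped, at 3.06 to 7.02 CPM in Tet2/3-deficient and 6.73 to 9.70 CPM in control cells. All of these passed edgeR with a BH-adjusted p under 0.05.

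Vitamin C, a cofactor of TET enzymes, was compared with its absence in TGFb cultures. Il2ra was at 753 and 766 FPKM with vitamin C and at 574 and 613 FPKM with TGFb alone. Il2rb was at 449.5 and 493 FPKM with vitamin C and 321 and 371 FPKM with TGFb alone. In both genes the libraries with vitamin C lay above those without. Il2ra rose 1.26-fold (log2 0.33 ± 0.08, edgeR, BH-adjusted p = 0.0159) and Il2rb 1.34-fold (log2 0.42 ± 0.09, edgeR, BH-adjusted p = 0.00806). Il21r was at 31.9 and 35.1 FPKM with vitamin C and 42.4 and 42.0 FPKM without, and fell 1.28-fold (log2 -0.36 ± 0.08, edgeR, BH-adjusted p = 0.00872). Il4ra, at 84.1 and 84.9 FPKM with and 73.2 and 71.1 FPKM without vitamin C, was just past the threshold (log2 0.20 ± 0.07, edgeR, BH-adjusted p = 0.0492) and missed it with DESeq2 (adjusted p = 0.0536). In all 4 of 8 members passed, 3 higher and 1 lower, beside 16.8% of 11287 genes tested (8.84% higher and 7.99% lower), and the median was 0.37 over the members and 0.00 over all genes. Leaving out 1 library changed the count: 0 members passed without TGFb replicate 1, 1 without vitamin C replicate 1, 1 without vitamin C replicate 2 and 3 without TGFb replicate 2, with no change of sign among the 4.

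Retinoic acid added to TGFb went with more Il21r, Il4ra and Il9r. Il21r was at 64.5 and 67.0 FPKM with retinoic acid and 42.4 and 42.0 FPKM with TGFb alone. Il4ra was at 103 and 102 FPKM with retinoic acid and 73.2 and 71.1 FPKM with TGFb alone. All libraries with retinoic acid lay above those without. Il21r rose 1.54-fold (log2 0.63 ± 0.08, edgeR, BH-adjusted p = 8.45e-05) and Il4ra 1.40-fold (log2 0.49 ± 0.07, edgeR, BH-adjusted p = 0.000153). Il9r, at 1.37 and 1.55 FPKM with and 0.735 and 0.799 FPKM without retinoic acid, rose 1.88-fold (log2 0.91 ± 0.25, edgeR, BH-adjusted p = 0.0241), a call that was lost without any 1 of the 4 libraries (adjusted p 0.0701 to 0.155) and with DESeq2 (adjusted p = 0.143). These 3 of 8 members stood beside 16.5% of genes tested (7.19% higher and 9.29% lower), and the median was 0.21 over the members and 0.02 over all genes. Il2ra did not pass (log2 0.11 ± 0.08, 95% interval -0.07 to 0.29) and neither did Il2rb (log2 0.09 ± 0.09, 95% interval -0.11 to 0.29). The vitamin C and retinoic acid comparisons share the TGFb libraries. Mast cell markers summed to 54.6 to 69.5 CPM with retinoic acid and 28.8 to 29.5 CPM with TGFb alone, with Mcpt4 and Ms4a2 at 0 in both and Cpa3 at 0 with retinoic acid. With both agents, where Il9r was the highest of the cultures, the sum was 11.2 to 12.5 CPM.

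With both agents, 6 of 8 members differed from TGFb alone, beside 37.5% of genes tested (18.3% higher and 19.2% lower), with a median of 0.32 over the members and 0.01 over all genes. Il4ra was at 119 and 124 FPKM with both and 73.2 and 71.1 FPKM with TGFb alone (log2 0.72 ± 0.07, edgeR, BH-adjusted p = 1.45e-06). Il9r was at 2.42 and 2.47 FPKM with both and 0.735 and 0.799 FPKM with TGFb alone (log2 1.64 ± 0.24, edgeR, BH-adjusted p = 0.000113). Il21r (log2 0.56 ± 0.08), Il2ra (log2 0.36 ± 0.08) and Il2rb (log2 0.27 ± 0.09) rose as well, and in each of these the libraries with both agents lay above those with TGFb alone. Il7r fell, to 10.2 and 7.94 FPKM with both agents against 14.5 and 14.5 FPKM with TGFb alone (log2 -0.71 ± 0.19, edgeR, BH-adjusted p = 0.0107). The Il2rb call was lost without TGFb replicate 1 (adjusted p = 0.293) and without either replicate with both agents (0.174 and 0.0696). The Il7r call was lost without replicate 2 with both agents (adjusted p = 0.0805) and with all 20 libraries in 1 fit (adjusted p = 0.222).

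Il7r was lower with both agents than with either alone. Its level was 10.2 and 7.94 FPKM with both agents and 18.9 and 13.3 FPKM with retinoic acid alone, a log2 fold change of -0.85 ± 0.19 (edgeR, BH-adjusted p = 0.0151). This call was lost with all 20 libraries in 1 fit (adjusted p = 0.347), without the count filter (0.0564), without retinoic acid replicate 1 (0.0850) and without replicate 2 with both agents (0.123). Both agents, again at 10.2 and 7.94 FPKM, stood against 20.2 and 19.0 FPKM with vitamin C alone, and the log2 fold change was -1.12 ± 0.19 (edgeR, BH-adjusted p = 0.00136), a call that was lost with all 20 libraries in 1 fit (adjusted p = 0.122). The libraries with both agents lay below all of those with 1 agent or none. Naive T cell markers summed to 1324 to 1348 CPM with both agents, against 1675 to 1727 CPM with retinoic acid, 1803 to 1861 CPM with vitamin C and 1889 to 1935 CPM with TGFb alone, with 5 of 5 detected in each group, and their part in the Il7r result was not tested. Without retinoic acid, vitamin C gave 0.41 ± 0.18 for Il7r, which did not pass (edgeR, BH-adjusted p = 0.139) and did with only these 2 groups in the fit (adjusted p = 0.0119). The difference between the vitamin C effects with and without retinoic acid was -1.27 ± 0.26 on the log2 scale and did not pass (95% interval -1.83 to -0.70, edgeR, BH-adjusted p = 0.174). It passed with DESeq2 (log2 -1.25, adjusted p = 0.000464) and, in edgeR, with replicate number as a block (log2 -1.26, adjusted p = 0.000379). In edgeR it did not with RLE factors (adjusted p = 0.214), without the count filter (0.425) or with all 20 libraries in 1 fit. Without retinoic acid replicate 2 the difference was -1.49. That contrast called 0 of 8 members and 0.0177% of genes in edgeR without a block, 2 members at an unadjusted p under 0.05, 1 member with DESeq2 and 0 with limma. Against retinoic acid alone 2 of 8 members passed beside 7.54% of genes (4.31% higher and 3.22% lower), namely Il7r and Il4ra (log2 0.23 ± 0.07). The Il4ra call was lost whichever 1 of the libraries was left out, with log2 values of 0.22 to 0.25. Against vitamin C alone 4 of 8 passed beside 15.1% of genes (5.81% higher and 9.3% lower): Il7r, Il4ra (log2 0.52 ± 0.07), Il21r (log2 0.92 ± 0.08) and Il9r (log2 0.91 ± 0.22), of which Il9r was lost without any 1 of the libraries (adjusted p 0.0533 to 0.0684).

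**Figure D3:**
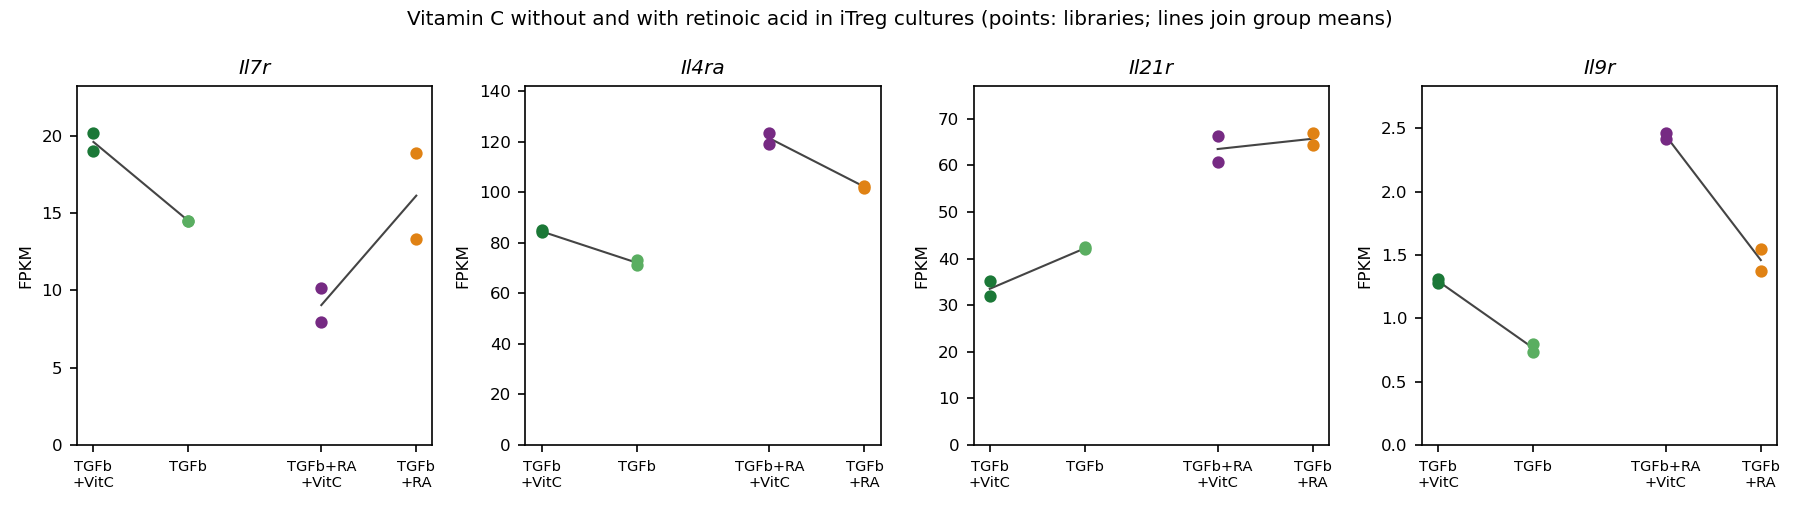
FPKM (linear scale from 0) of Il7r, Il4ra, Il21r and Il9r in TGFb cultures with and without vitamin C, without retinoic acid (left pair of each panel) and with it (right pair). Points are libraries, 2 a group, and lines join group means: for Il7r vitamin C stands above its absence without retinoic acid and below it with retinoic acid, and for Il4ra and Il9r above it in both.

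Pathway genes in the vitamin C cultures included Stat5a (log2 0.32 ± 0.10) and Stat5b (log2 0.42 ± 0.10), which carry IL-2 and IL-7 signals, and Stat3 (log2 0.37 ± 0.08). Beside 16.8% of all genes called, 4 of 17 signalling genes rose and 1 fell against TGFb alone (median log2 0.18), and of 8 feedback genes Ptpn1 (log2 0.55 ± 0.08) and Socs2 (log2 0.27 ± 0.08) rose and none fell (median 0.28). Of the transcription factors 3 of 15 tested rose (median 0.20): Foxp3 (log2 0.75 ± 0.09), Gfi1, a repressor known to act on Il7r (log2 0.57 ± 0.13), and Foxp1 (log2 0.31 ± 0.08). Gfi1 was at 31.1 ± 4.4 CPM with vitamin C and 20.5 ± 1.4 CPM with TGFb alone (SD, n = 2 each). With retinoic acid Gfi1 rose too (log2 1.15 ± 0.13), and with both agents it stood at 64.5 ± 4.7 CPM (log2 1.62 ± 0.13 against TGFb alone). With retinoic acid, where 16.5% of all genes were called, 4 of the 15 factors rose and 1 fell (median 0.22), 1 of 17 signalling genes rose and 1 fell (median 0.11), and 1 of 8 feedback genes fell (median -0.09). All of these passed edgeR with a BH-adjusted p under 0.05.

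TGFb itself, compared with Th0 activation, went with more Il2ra, Il2rb and Il7r and less Il4ra, Il21r and Il9r. Il2ra was at 574 and 613 FPKM with TGFb and 242 and 295 FPKM in Th0 cells (log2 1.11 ± 0.09, edgeR, BH-adjusted p = 3.43e-07). Il2rb was at 321 and 371 FPKM with TGFb and 136 and 157 FPKM in Th0 cells (log2 1.21 ± 0.10, edgeR, BH-adjusted p = 4.36e-07). Both were above 2-fold and without overlap. Il7r was at 14.5 and 14.5 FPKM with TGFb and 5.86 and 4.47 FPKM in Th0 cells (log2 1.46 ± 0.20, edgeR, BH-adjusted p = 0.000261). Il4ra fell to 73.2 and 71.1 FPKM with TGFb against 117 and 115 FPKM in Th0 cells (log2 -0.72 ± 0.07, edgeR, BH-adjusted p = 2.43e-06). Il21r (log2 -0.36 ± 0.08) and Il9r (log2 -1.08 ± 0.25) fell too, and the libraries did not overlap in either. The Il9r call was lost without Th0 replicate 1 (adjusted p = 0.0869) and without TGFb replicate 1 (0.0542). In all 6 of 8 members passed, 3 in each direction, beside 26.1% of genes tested (14.5% higher and 11.6% lower), with a median of -0.09 over the members and 0.00 over all genes, while Il2rg (log2 0.17 ± 0.07) and Il15ra (log2 -0.64 ± 0.25) did not. Of 17 signalling genes 8 rose and none fell (median 0.33), among them Stat3 (log2 0.57 ± 0.08), Stat5b (log2 0.55 ± 0.10) and Jak3 (log2 0.49 ± 0.15), and of 8 feedback genes 4 rose and none fell (median 0.56), among them Cish (log2 1.00 ± 0.13) and Socs2 (log2 0.67 ± 0.08), by edgeR with a BH-adjusted p under 0.05.

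Th0 cells, activated from naive cells, held more Il2rb and Il4ra and less Il7r and Il21r than naive cells. Il7r was at 5.86 and 4.47 FPKM in Th0 cells and 146 and 116 FPKM in naive cells, 25.9-fold lower on activation (log2 -4.69 ± 0.20, edgeR, BH-adjusted p = 5.72e-10). Il2rb was at 136 and 157 FPKM in Th0 and 12.8 and 15.1 FPKM in naive cells, 10.3-fold higher (log2 3.36 ± 0.11, edgeR, BH-adjusted p = 9.15e-13). Il2ra was at 242 and 295 FPKM in Th0 and 0.559 and 0.496 FPKM in naive cells, which were sorted without CD25, so no test is given for it. Il9r had 100 counts over both Th0 libraries and 0 over both naive libraries, at least 32.1-fold higher against a floor of 3 counts over the naive group. Il4ra rose 1.30-fold and Il21r fell 1.50-fold (log2 0.38 ± 0.07 and -0.59 ± 0.08, edgeR, BH-adjusted p = 0.000110 and 8.75e-06). Il2rg fell slightly (log2 -0.23 ± 0.07, edgeR, BH-adjusted p = 0.00681), a call that was lost without Th0 replicate 2 (adjusted p = 0.122). The sort and the 0 naive counts fix the direction of Il2ra and Il9r, so these are left out of the count. Of the other 6 members 2 were higher and 3 lower, beside 72% of genes tested (35.7% higher and 36.4% lower), with a median of -0.03 over these 6 and -0.01 over all genes. Of 17 signalling genes 13 fell and 2 rose (median log2 -0.86), with Jak1 at 561 ± 8.4 CPM in Th0 and 1617 ± 5.6 CPM in naive cells (SD, n = 2 each). Of 8 feedback genes 5 rose and 1 fell (median 0.39). Socs2 rose most, at 360 and 373 CPM in Th0 and 0.403 and 0.104 CPM in naive cells, too few counts there for a precise fold change. Cish (log2 3.80 ± 0.16) and Socs1 (log2 2.07 ± 0.14) came next. Of 15 receptor gene regulators tested 12 fell and 3 rose (median -0.74), with Foxo1, a known activator of Il7r, lower (log2 -2.16 ± 0.16).

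Ex vivo control Treg cells and TGFb iTreg cells differed in age, genotype and culture as well as in origin, and these cannot be told apart. Il2ra was at 203, 204, 186 and 200.3 FPKM in control Treg and 574 and 613 FPKM in TGFb iTreg cells, 3.09-fold lower ex vivo (log2 -1.63 ± 0.07, edgeR, BH-adjusted p = 5.75e-08). Il2rb was 1.54-fold higher ex vivo (log2 0.62 ± 0.10, edgeR, BH-adjusted p = 0.000352), so these 2 chains of the high-affinity receptor stood on opposite sides. Il7r was 5.61-fold higher (log2 2.49 ± 0.42, edgeR, BH-adjusted p = 0.00541) and stayed so without control library S1 (log2 2.22). Il21r was 2.06-fold and Il9r 13.1-fold higher (log2 1.04 ± 0.11 and 3.71 ± 0.21, edgeR, BH-adjusted p = 1.75e-05 and 2.67e-07). Markers of other cells differed as well. B cell markers summed to 43.7 to 106 CPM in control Treg and 3.05 to 3.47 CPM in TGFb iTreg cells. Myeloid and dendritic markers summed to 37.6 to 47.6 CPM in control Treg and 2.65 to 3.53 CPM in iTreg cells. NK and innate lymphoid markers summed to 7.67 to 9.90 CPM in control Treg cells, of which Eomes alone held 3.52 to 5.34 CPM. In iTreg cells these summed to 0.638 to 0.667 CPM, all of it Eomes, with the other 4 at 0. Naive T cell markers summed to 3203 to 3452 CPM in control Treg and 1889 to 1935 CPM in iTreg cells. The part of all these markers in these results was not tested. In all 5 of 8 members passed, beside 61.4% of genes tested (32.3% higher and 29.1% lower), with a median of 0.63 over the members and 0.04 over all genes. Il15ra did not (log2 0.65 ± 0.27), and did without control library S1 (log2 0.80, adjusted p = 0.00651). Of the 8 feedback genes 7 were lower ex vivo and none higher (median -0.64), led by Socs2 (log2 -2.83 ± 0.19), Socs1 (log2 -1.91 ± 0.12) and Cish (log2 -1.35 ± 0.09), while 10 of 17 signalling genes were higher and 3 lower (median 0.47), with Stat5a at 184 ± 7.2 CPM in control Treg and 67.7 ± 1.7 CPM in iTreg cells. The adaptor gene Gab2 was at 0.421 ± 0.11 CPM in control Treg and 30.2 ± 1.8 CPM in iTreg cells.

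Control Treg and naive cells differed in age and genotype as well as in cell type, and these cannot be told apart. Against naive cells, control Treg cells held 35.6-fold more Il2rb (log2 5.16 ± 0.12, edgeR, BH-adjusted p = 7.5e-10). Il9r had 2006 counts over the 4 control Treg libraries and 0 over the 2 naive libraries, at least 209-fold higher against a floor of 3 counts over the naive group. Il4ra was lower (log2 -0.41 ± 0.09, edgeR, BH-adjusted p = 0.00250). For Il7r, 128, 62.0, 57.6 and 88.2 FPKM in control Treg and 146 and 116 FPKM in naive cells overlapped through control library S1. The difference did not pass (log2 -0.79 ± 0.36, edgeR, BH-adjusted p = 0.122), and passed without that library (log2 -1.05, adjusted p = 0.0113). Il2rg was slightly lower (log2 -0.33 ± 0.11, edgeR, BH-adjusted p = 0.0293), and this call was lost without naive replicate 1, naive replicate 2 or control library S3 (adjusted p 0.133, 0.145 and 0.0571). With Il2ra and Il9r again left out, 1 of the other 6 members was higher and 2 were lower, beside 54.9% of genes tested (28.6% higher and 26.3% lower), with a median of -0.13 over these 6 and 0.01 over all genes.

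Cells that were Foxp3- after restimulation differed from day 6 Foxp3+ iTreg cells in 6 of the 7 members tested, beside 68.8% of all genes tested. The Foxp3 sort and the restimulation differ together between these groups and cannot be told apart. Il2ra was at 147, 151 and 143 FPKM in restimulated Foxp3- cells and 651, 641 and 657 FPKM in day 6 iTreg cells. That was a 4.67-fold fall without overlap (log2 -2.22 ± 0.06, edgeR, BH-adjusted p = 1.03e-13). Il2rb was at 228, 229 and 227 FPKM in restimulated and 305, 279.9 and 336 FPKM in day 6 cells (log2 -0.50 ± 0.06, edgeR, BH-adjusted p = 5.2e-06). Il4ra, Il21r, Il7r and Il15ra rose. Il4ra was at 127, 123 and 135 FPKM in restimulated and 64.5, 62.5 and 67.3 FPKM in day 6 cells (log2 0.91 ± 0.06, edgeR, BH-adjusted p = 2.01e-09). Il21r was at 72.1, 69.1 and 67.6 FPKM in restimulated and 34.8, 34.7 and 38.2 FPKM in day 6 cells (log2 0.88 ± 0.06, edgeR, BH-adjusted p = 4.87e-09). Il7r was at 18.2, 19.1 and 29.4 FPKM in restimulated and 4.97, 6.16 and 8.27 FPKM in day 6 cells (log2 1.70 ± 0.29, edgeR, BH-adjusted p = 0.00481). None of these overlapped between groups. Il15ra, at 1.65, 1.46 and 1.51 FPKM in restimulated and 0.804, 1.05 and 1.17 FPKM in day 6 cells, rose as well (log2 0.51 ± 0.17, edgeR, BH-adjusted p = 0.0129).

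The shared chain did not pass. Il2rg was at 329.5, 325 and 334 FPKM in restimulated and 329.8, 325 and 326 FPKM in day 6 cells (log2 -0.06 ± 0.05, 95% interval -0.17 to 0.04, edgeR, BH-adjusted p = 0.265). Il9r was under the count filter, with 1, 1 and 1 counts in restimulated and 13, 8 and 3 counts in day 6 libraries, a CPM ratio of 0.131 with a 95% counting interval of 0.0252 to 0.430. The 6 calls, 4 higher and 2 lower, stood beside 68.8% of 11252 genes tested (33.6% higher and 35.2% lower), and the median was 0.51 over the 7 members and -0.01 over all genes. DESeq2, run without that count filter, called 7 members, beside 3540 higher and 3632 lower calls among 13653 genes. Its added member was Il9r, at the few counts given above, as Il2rg passed under none of the alternatives. Il2ra made up 15.9 ± 0.58% of the members' summed FPKM in restimulated and 46.7 ± 0.83% in day 6 cells, and the ratio of Il2ra to Il2rb was 0.643 ± 0.014 in restimulated and 2.13 ± 0.17 in day 6 cells (SD, n = 3 each). Naive T cell markers summed to 2490 to 2800 CPM in restimulated and 1126 to 1303 CPM in day 6 cells (5 of 5 detected in both). NK and innate lymphoid markers summed to 20.8 to 23.9 CPM in restimulated and 0.806 to 1.80 CPM in day 6 cells, with Ncr1 at 0 in both. Nearly all of that sum was Eomes, at 20.6 to 23.7 CPM in restimulated and 0.725 to 1.74 CPM in day 6 cells. The part of all these markers in these results was not tested.

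**Figure D4:**
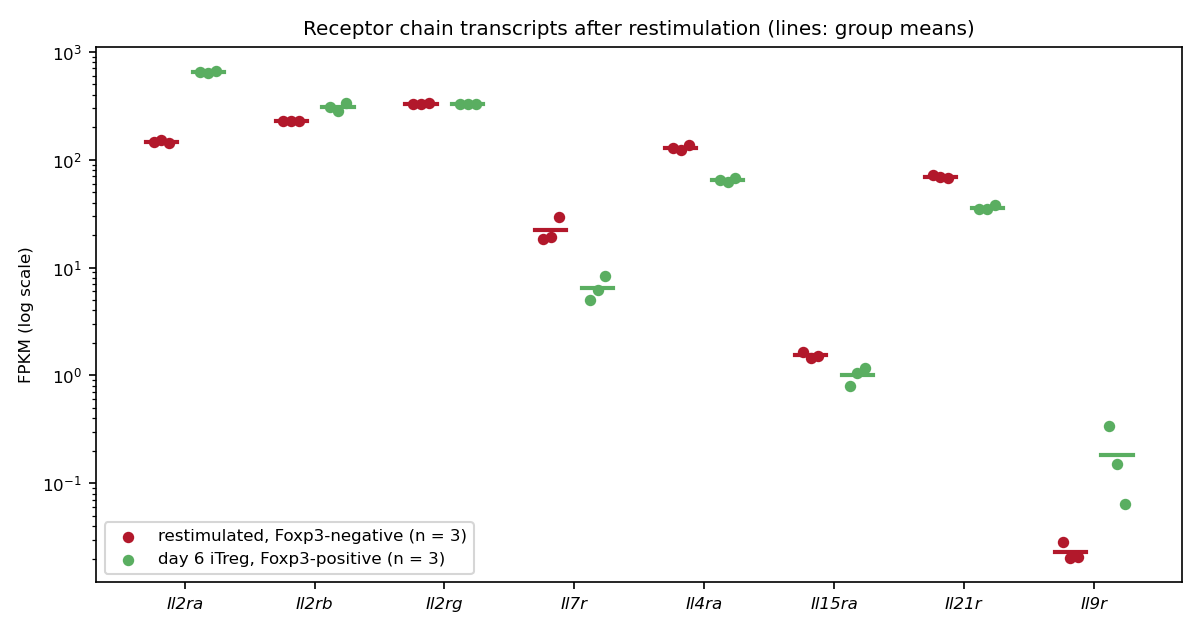
FPKM (log scale) of the 8 receptor genes in restimulated Foxp3- cells and day 6 Foxp3+ iTreg cells, 3 libraries each, with lines for group means. Il2ra and Il2rb are lower and Il7r, Il4ra, Il15ra and Il21r higher in the restimulated cells, and Il2rg is at the same level within 1.01-fold.

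Around the receptors, restimulated cells held less Jak3, the kinase that binds the shared chain, and more Jak1. Jak3 was at 108 ± 5.5 CPM in restimulated and 243 ± 17 CPM in day 6 cells (log2 -1.25 ± 0.06), and Jak1 at 849.7 ± 50 CPM in restimulated and 478 ± 40 CPM in day 6 cells (log2 0.75 ± 0.06; SD, n = 3 each). Beside 68.8% of all genes called (33.6% higher and 35.2% lower), 8 of 17 signalling genes rose and 5 fell (median 0.08). Of 8 feedback genes 6 fell and 2 rose (median -0.52), with Ptpn1 (-1.03 ± 0.05), Socs1 (-0.83 ± 0.07) and Cish (-0.73 ± 0.05) down and Socs3 (0.70 ± 0.06) up on the log2 scale. Of 12 STAT5 and STAT6 target genes 5 rose and 6 fell (median -0.05), with Lta, a TNF family cytokine, at 61.1 ± 2.5 CPM in restimulated and 383 ± 17 CPM in day 6 cells and Pim2 higher (log2 1.85 ± 0.08). Of 16 receptor gene regulators 13 rose and 3 fell (median 0.58). Foxp3 is among the 3 that fell, and its direction follows from the Foxp3 sort. Tbx21, the Th1 factor T-bet, was at 16.0 ± 0.37 CPM in restimulated and 0.213 ± 0.11 CPM in day 6 cells, and Eomes at 22.0 ± 1.5 CPM in restimulated and 1.28 ± 0.51 CPM in day 6 cells. Smad3, which transmits TGFb signals, rose (log2 1.27 ± 0.06). All of these passed edgeR with a BH-adjusted p under 0.05.

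**Figure D5:**
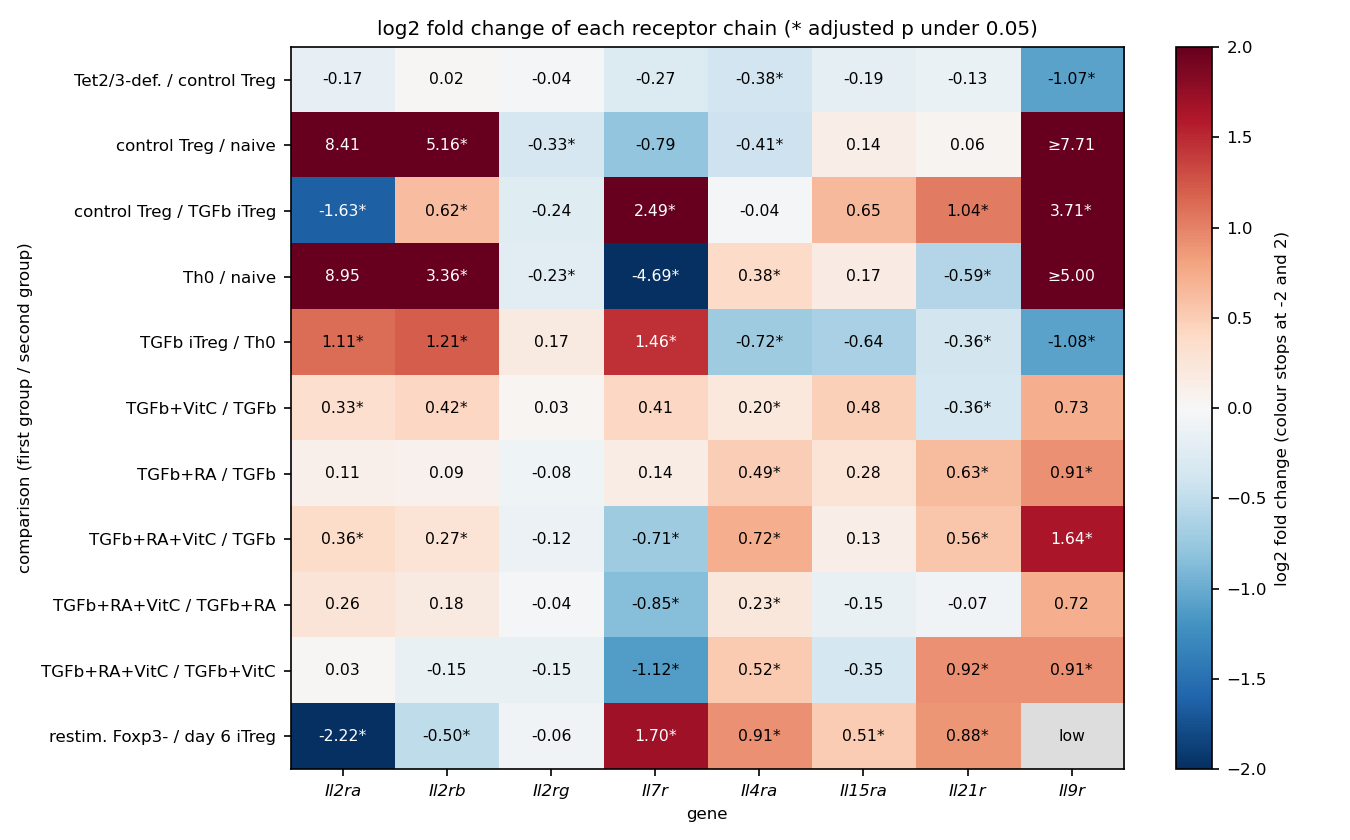
Log2 fold change of each receptor gene (columns) in 11 comparisons (rows, first group over second), with an asterisk where the edgeR BH-adjusted p was under 0.05. Colour stops at -2 and 2, values after ≥ are lower bounds against 0 counts, the grey cell was under the count filter, and Il2ra against naive cells reflects a sort without CD25 and carries no asterisk, nor do the bounds. Il2rg lies between -0.33 and 0.17 in all 11.

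The ligands of these receptors were hardly counted. None of Il2, Il4, Il7, Il9, Il13, Il15, Il21 and Tslp passed the count filter in any comparison. The highest count of a ligand in a library was 15, for Il4 in Th0 replicate 2, and Il9 had 0 counts in all 26 libraries. Of the partner chains, Crlf2, which pairs with Il7r in the TSLP receptor, fell with both agents against TGFb alone (log2 -0.44 ± 0.12) and in restimulated against day 6 cells (log2 -0.39 ± 0.09), and was higher in control Treg than in TGFb iTreg cells (log2 0.58 ± 0.14) and than in naive cells (log2 0.78 ± 0.14). Il13ra1, which pairs with Il4ra, was at 0.926 ± 0.42 CPM in Tet2/3-deficient and 1.70 ± 0.39 CPM in control Treg cells (log2 -0.91 ± 0.32, edgeR, BH-adjusted p = 0.0499). The Crlf2 values passed edgeR with a BH-adjusted p under 0.05.

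The genes with the pattern most like each member were found by Pearson's r over the 8 group means of log2(FPKM + 1), among 2871 other genes. For Il2ra they were Myo1c, Lrrc41 and Plscr1 (r 0.99 to 1.00), and for Il2rb Cd48, Ccr4 and Ctla4 (0.98 to 0.99). For Il7r they were Prkx, Ankrd50 and Ier5 (0.98 to 0.99), and for Il2rg Madd, Arhgef11 and Tab2 (0.89 to 0.93). Il4ra was most like Mylpf, Ggact and Flt3l (0.86 to 0.89), and Il21r most like Slc9a9, Ephx1 and Cpt1a (0.91). Il15ra, with the smallest range among the low chains, was most like Ifi27l2a, Adora2a and Gm6548 (0.72 to 0.82), and Il9r most like Tm2d3, Gm8979 and Tmsb15b1 (0.95). These are descriptions over 8 points that share the sorts and depth of their libraries.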

How the data were processed

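Read counts over the exons of each gene were deposited by the authors for 20 and 6 libraries in separate tables, which were not pooled. The authors' deposited FPKM equal count over library total and exon length. RNA was extracted with RNeasy plus kits and libraries made with a TruSeq stranded mRNA kit, per the labels' protocols. Per the submitters' processing notes, build mm9 was used with TopHat2 (version 2.1.1) and, besides it, edgeR (3.26.6), R (3.6.1), Trim Galore (0.4.2), bcl2fastq (2.20.0.442), Picard (2.5.0) and SAMtools (1.7). The counting tool, strand setting and annotation are not given in the sources used here. A deposited table of RPM was not used.

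Counts were tested with edgeR 4.0.16 (R 4.3.3) by the quasi-likelihood test with robust dispersion, TMM factors, filterByExpr, 2-sided, and BH adjustment over all genes tested, with a threshold of 0.05. The 12 naive and cultured libraries shared 1 fit (6 residual degrees of freedom), the 8 ex vivo Treg libraries another (6), and the other comparisons used their own 6 libraries (4 each). Genes without a symbol numbered 92 and 99 in the 2 tables. CPM are deposited counts scaled to the library total. Intervals are 95%, and counting intervals and floors of 3 counts cover counting error only. DESeq2 1.42.0, limma 3.58.1 on log2(FPKM + 1) or log2(FPKM + 0.1), RLE factors, no filter, other sets of libraries in the fit, a replicate block and each library left out in turn were alternatives. The tests were checked on simulated data drawn with edgeR's own fitted dispersions. Groups shared a mean apart from a small set of planted genes. Far more genes were called in the data, so the shares below do not cover so wide a change. For Tet2/3-deficient against control cells, 67.2% of genes planted at 1.5-fold and 98.5% of those at 4-fold were recovered among 11679 genes, and 6.15% of the calls were false. For vitamin C against TGFb alone (n = 2 a group, 11287 genes) these shares were 56.7%, 95.5% and 5.92%, and for restimulated against day 6 cells (11252 genes) 85.1%, 100% and 8.33%.

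Columns were assigned by name, and those of the ex vivo Treg libraries (S1 to S8) name the group but not which sample. The members and the pathway and marker lists were chosen with earlier results of these data known. Named pathway genes are up to 4 called genes per list and comparison with the largest change, and likeness was ranked among genes averaging at least 5 FPKM with a range of at least 1 on the log2(FPKM + 1) scale. Nothing in the labels says that replicate numbers pair the samples, and the comparisons were fitted without a block: same-numbered deviations correlated over 0.1 in 6 of 15 group pairs and 1 of 3 restimulation pairs. Sequences, motifs and neighbours are from RefSeq on GRCm38.p6, and no coordinates were moved between builds.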

Additional observations from a re-analysis of the deposited data

Results flagged for a closer look

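Control Treg library S1 was far from the other 3 control libraries in Il2rb, where it was the highest at 616 FPKM (gap to the next library over the range of the group 0.921), and in Il21r, where it was the lowest at 76.2 FPKM (0.932). The same library had the lowest sum of the 5 naive T cell markers among the controls, 3203 CPM (0.875). Tet2/3-deficient library S5 had the highest sum of these markers in its group, 3285 CPM (0.958). Chance alone marks about 1 in 20 groups in this way. Without S1 the log2 fold changes between Tet2/3-deficient and control cells were 0.08 for Il2rb and -0.21 for Il21r, and neither passed (edgeR, BH-adjusted p = 0.277 and 0.0668).

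The vitamin C effect on Il7r went opposite ways with and without retinoic acid in every library. Its difference between those cultures was -1.27 on the log2 scale (edgeR, BH-adjusted p = 0.174). Il15ra did the same, with a difference of -0.63 (edgeR, BH-adjusted p = 1.00), at levels of 0.861 to 1.52 FPKM.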

How the results depend on the processing

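Of 95 tests of single members 50 passed, and 36 of these passed under every alternative, while 14 were lost under at least 1. Over 1180 alternative values, 25 changed sign, none of them of a member that had passed. In limma, Il2rg was 0.0098 under both pseudocounts between Tet2/3-deficient and control Treg and 0.012 under both between restimulated and day 6 cells, and Il4ra was 0.0061 under both between control Treg and TGFb iTreg cells. For the vitamin C effect with minus without retinoic acid, Il9r gave 0.0082 with DESeq2, 0.0091 with RLE factors, 0.11 and 0.020 with limma, and 0.0015 with all 20 libraries in 1 fit. The cause was not tested.

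With vitamin C, 2 members passed when all 20 libraries were fitted together. For both agents against retinoic acid alone, 1 member passed without the filter, with all 20 libraries or with only those 2 groups, and 4 with the replicate block. All genes called there were 487 with 2 groups and 1363 with the block. For the difference of vitamin C effects, 1 member passed with DESeq2 and 1 with the block. All genes called there numbered 17 with DESeq2, 25 without the filter, 23 and 8 with limma and 26 with the block. With the replicate block every other total of called genes or members stayed within 1.5 times the count without it, while the lower calls with vitamin C numbered 1383 with the block and 902 without. Il7r passed with vitamin C under the block (log2 0.41, adjusted p = 0.00780). Among the restimulation libraries 3 of 3 numbers correlated best with their own number, a hint from the data only. No paired analysis was possible for the ex vivo Treg libraries because their columns carry no replicate number of the labels. With limma on log2(FPKM + 1), which changes the test and also leaves out the TMM factors, the share of called genes that were higher was 62.7%, against 51.4%, in Tet2/3-deficient cells and 66.0%, against 52.1%, in control Treg against naive cells. Member counts against naive cells here include Il2ra and Il9r, whose calls follow from the sort and from 0 naive counts.

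Leaving out 1 library gave these ranges of all genes and of members called: 2831 to 4141 and 2 to 3 (Tet2/3-deficient), 771 to 1001 and 0 to 3 (vitamin C), 795 to 1898 and 2 to 2 (retinoic acid), 2811 to 3301 and 4 to 6 (both agents), 424 to 899 and 0 to 1 (both against retinoic acid), 819 to 1367 and 3 to 3 (both against vitamin C), 1 to 11 and 0 to 1 (difference of vitamin C effects), 1480 to 1945 and 5 to 6 (TGFb against Th0), 7331 to 7407 and 6 to 7 (Th0 against naive), 5423 to 7584 and 5 to 6 (control Treg against TGFb iTreg), 4402 to 6755 and 4 to 6 (control Treg against naive) and 7120 to 7713 and 6 to 6 (restimulation). A lone sample left in a group was assumed to vary like the others in its fit. Members that had not passed and changed sign when 1 library was left out were Il2rb (-0.0053 to 0.077), Il2rg (-0.12 to 3.05e-05) and Il7r (-0.44 to 0.0091) between Tet2/3-deficient and control cells, Il2rb (-0.019 to 0.18) and Il7r (-0.15 to 0.36) with retinoic acid, Il2ra (-0.022 to 0.074) and Il15ra (-0.65 to 0.018) for both agents against vitamin C, Il4ra (-0.082 to 0.0080) between control Treg and TGFb iTreg cells, and Il9r (-0.080 to 0.092) in the difference of vitamin C effects.
Shares taken from CPM in place of FPKM moved by over 1 SD in 61 of 80 cases. Of 24 most alike genes 17 were kept with a pseudocount of 0.1 and 16 with a lower minimum of 1 FPKM. Il15ra and, in cultures, Il9r lie at low counts, which limits their precision.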

Other observations

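Il13ra1, a partner of Il4ra, was at 1.15, 1.76, 1.82 and 2.07 CPM in the control Treg libraries. It stood at 0 and 0.286 CPM with TGFb alone and at 0.302 and 0.311 CPM in naive cells. The gene passed the count filter only in fits that held ex vivo Treg cells. In control Treg cells it was called higher than with TGFb alone and than in naive cells. Counts in those groups were too few for a precise fold change, so none is given. In control Treg against TGFb iTreg cells, 11 of 16 receptor gene regulators were higher and 3 lower, beside 32.3% higher and 29.1% lower of all genes tested. The median log2 fold change was 0.40 over the list and 0.04 over all genes. Furthest up were Tbx21 and Eomes (log2 2.58 ± 0.35 for Eomes). Tbx21 was at 6.73 to 9.70 CPM in control Treg cells and, at few counts, 0.274 and 0.191 CPM with TGFb alone. Of 12 STAT5 and STAT6 target genes 7 were lower and 3 higher (median -0.56), among them Osm at 27.1 ± 2.1 CPM in control Treg and 134 ± 5.9 CPM in TGFb iTreg cells (SD, n = 4 and n = 2). With both agents against TGFb alone, 6 of those 12 were lower and 2 higher (median -0.09), beside 18.3% higher and 19.2% lower of all genes tested. Pim2 (log2 -1.55 ± 0.18) and Batf (log2 -0.93 ± 0.13) were among the lower. All calls in this paragraph are by edgeR with a BH-adjusted p under 0.05.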
